A study of Mus musculus with 8 samples.

Results

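The potassium channel genes of the mouse left ventricle were followed after myocardial infarction (MI). Members were all gene symbols in both deposited count tables that begin with Kcn and had at least 10 counts summed over the 8 libraries. This gave 89 of 24062 genes, from 97 symbols that begin with Kcn. Just inside the limit were Kcnk18 with 11 counts and Kcng1 with 13, and just outside it were Kcnk10, Kcnk12 and Kcnk15 with 8 each. Of the 89 members, 87 were pore-forming, accessory or regulatory protein genes and 2 were noncoding RNAs, Kcnq1ot1 and Kcnd3os. All 8 libraries were of total RNA, depleted of ribosomal RNA, from left ventricular free wall of male C57BL/6 mice aged 8 to 12 weeks. The groups were MI at 1 day, sham surgery at 1 day, MI at 3 days and sham surgery at 3 days, with 2 mice each. In MI mice the left anterior descending coronary artery had been tied off, and in sham mice the artery was not tied. No group carried an engineered allele or a drug treatment in the labels.

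Potassium channels carry the outward currents that repolarise the cardiomyocyte and hold its resting potential. In the mouse ventricle, early repolarisation depends on the transient outward and slowly inactivating voltage-gated currents, while inward rectifiers set the resting potential and the ATP-sensitive channel links membrane potential to metabolism. Other members of the family work outside cardiomyocytes, for example in vascular smooth muscle, in macrophages and in lymphocytes, where they set the driving force for calcium entry.

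Libraries held 7.38 × 10⁶ to 25.04 × 10⁶ gene counts, and the 2 lowest were those of MI at 1 day. Levels are in CPM, counts per 10⁶ counts after TMM scaling, and 3 counts made 0.102 to 0.369 CPM depending on the library. Within a group, libraries A and B follow the order of the count columns. The B libraries of 1 day stood apart. Of 1460 olfactory and vomeronasal receptor genes, picked by their symbols after the counts were seen, 92% had reads in MI library B and 50.8% in sham library B, against 4.04 to 23.5% in the other 6 libraries. Mitochondrially encoded genes took 28.7 and 43.34% of transcript-table reads in MI libraries A and B of 1 day, 6.508 and 4.189% in those of 3 days, and 13.88 to 16.56% in the sham libraries. The sample numbers in the column names of MI and sham fell in separate blocks, so a batch that coincided with MI cannot be told apart from MI. Within MI and within sham, the numbers of 1 day and 3 days were also separate. A batch that coincided with day thus cannot be told apart from day in any contrast of 3 days with 1 day. The tissue held cardiomyocytes by its markers: 10 cardiomyocyte genes summed to 101000 and 112000 CPM in the MI libraries of 1 day, against 185000 and 161000 CPM in the sham libraries, and to 8210 and 8120 CPM in the MI libraries of 3 days, against 113000 and 175000 CPM. In bulk tissue, fewer cells of a type and less RNA per cell cannot be told apart.

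The comparison of MI with sham at each day asks which channel genes had changed early and which only later. At 1 day, 11 of the 64 members that could be tested rose and 16 fell, and at 3 days 11 rose and 28 fell (edgeR quasi-likelihood test, Benjamini-Hochberg adjusted over 15508 genes, threshold 0.05). Over all genes tested, 39% were called at 1 day and 55.4% at 3 days, against 42.2% and 60.9% of the members tested. At 3 days falls made up 43.8% of the members, against 23.7% of all genes, and rises made up 17.2%, against 31.7%. At 1 day falls made up 25% of the members, against 19.7% of all genes, and rises 17.2%, against 19.3%. The median log2 fold change of the members was 0.51 at 1 day, against 0.12 over all genes, and −1.09 at 3 days, against 0.16. The 1-day median includes MI library B, which stood apart. Among the 64 tested members, that library had the highest CPM of all 8 libraries in 27, and MI library A of 1 day in 0. The 2 MI libraries lay above both sham libraries in 22 members and below both in 19 at 1 day, against 34.7% and 32.6% of all genes. At 3 days they lay above in 16 and below in 32, against 45.9% and 35.1% of all genes. No member rose on one day and fell on the other.

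**Figure D1:**
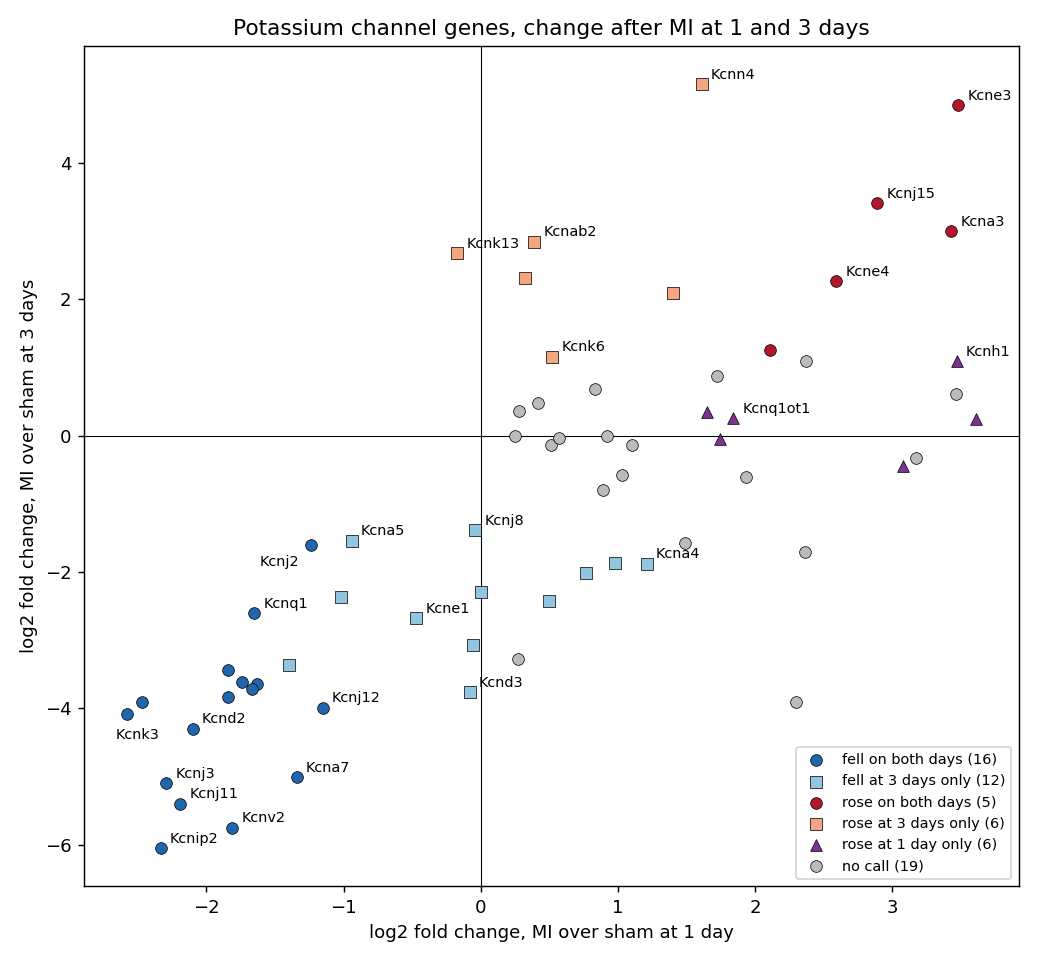
Log2 fold change of MI over sham at 1 day (horizontal axis) and at 3 days (vertical axis) for the 64 members tested, coloured by the calls of each day. The 16 members that fell on both days lie at the lower left, between −6.05 and −1.60 at 3 days, and Kcnd3 lies straight below zero, near 0 at 1 day and at −3.76 at 3 days.

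The genes of the fast transient outward current, which shapes early repolarisation in rodent ventricle, held the largest fall of the family. Kcnip2 (chromosome 19, 45792346 to 45816422 in GRCm38.p6) encodes the accessory subunit that brings the pore proteins of this current to the membrane. It was at 43.5 and 20.5 CPM in the MI libraries of 1 day, against 168 and 159 CPM in the sham libraries. At 3 days it was at 2.83 and 2.01 CPM after MI, against 166 and 152 CPM after sham surgery. Both MI groups lay far below their sham groups, with a log2 change of −2.33 at 1 day (SE 0.30, adjusted p = 0.000529) and −6.05 at 3 days (SE 0.37, adjusted p = 2.19e-06). The fall was deeper at 3 days than at 1 day, with a log2 difference of −3.72 (SE 0.46, adjusted p = 0.000662). Without MI library A of 1 day, the 1-day value was −3.09.

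The pore genes of this current, Kcnd2 and Kcnd3, parted at 1 day. Kcnd2 (chromosome 6, 21215346 to 21729805) was at 10.6 and 16.7 CPM after MI at 1 day, against 52.5 and 62.6 CPM in sham libraries, and at 1.97 and 2.35 CPM after MI at 3 days, against 39.4 and 46.1 CPM. The MI libraries lay below the sham libraries on both days, with log2 fold changes of −2.10 (SE 0.25, adjusted p = 0.000391) and −4.30 (SE 0.28, adjusted p = 3.01e-06). Kcnd3 (chromosome 3, 105451890 to 105674002) was at 19.0 and 21.3 CPM after MI at 1 day, against 22.9 and 19.6 CPM in sham libraries, so the groups overlapped. At 3 days it was at 1.51 and 1.90 CPM after MI, against 19.2 and 27.5 CPM after sham surgery. Its log2 fold change was −0.08 at 1 day (SE 0.24, adjusted p = 0.809) and −3.76 at 3 days (SE 0.29, adjusted p = 6.38e-06), and the difference between the days, −3.67, passed the test (SE 0.38, adjusted p = 0.000318). Its overlapping noncoding neighbour Kcnd3os fell at 3 days by 2.36 (SE 0.89, adjusted p = 0.0411), a call lost in 11 of 17 alternatives, with −1.45 without sham library A of 3 days. With the strand setting of the counting not stated, reads in the overlap cannot be assigned to either gene.

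The number of Kcnd2 counts for each Kcnd3 count was 0.56 and 0.786 in the MI libraries of 1 day, against 2.3 and 3.2 in the sham libraries. At 3 days it was 1.3 and 1.23 after MI, against 2.05 and 1.67 after sham surgery. The ratio was thus lower in both MI libraries on each day, and furthest at 1 day; an exact permutation test of 2 against 2 libraries gave p = 0.333, the smallest it can give. The counts are not divided by transcript length, so the ratio compares libraries and not the abundance of the 2 genes.

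The 250 bases before the annotated start of Kcnd2 and Kcnd3 are shown because these 2 pore genes of one current differed at 1 day, and those of Kcne4 because, of the members that rose on both days, it had the highest level per kilobase after MI at 3 days. They come from RefSeq, GRCm38.p6, on the plus strand, at chr6:21215096-21215345, chr3:105451640-105451889 and chr1:78816661-78816910, and read 5′ to 3′.
Kcnd2: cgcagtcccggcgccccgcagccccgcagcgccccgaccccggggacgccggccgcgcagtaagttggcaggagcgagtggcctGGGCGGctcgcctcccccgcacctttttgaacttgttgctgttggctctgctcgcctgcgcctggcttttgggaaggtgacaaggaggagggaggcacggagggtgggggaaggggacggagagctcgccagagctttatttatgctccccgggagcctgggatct
Kcnd3: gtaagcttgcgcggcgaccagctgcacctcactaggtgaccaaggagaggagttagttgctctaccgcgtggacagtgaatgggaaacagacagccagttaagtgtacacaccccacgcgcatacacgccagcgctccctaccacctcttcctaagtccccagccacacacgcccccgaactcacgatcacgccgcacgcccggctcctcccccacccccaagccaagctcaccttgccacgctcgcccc
Kcne4: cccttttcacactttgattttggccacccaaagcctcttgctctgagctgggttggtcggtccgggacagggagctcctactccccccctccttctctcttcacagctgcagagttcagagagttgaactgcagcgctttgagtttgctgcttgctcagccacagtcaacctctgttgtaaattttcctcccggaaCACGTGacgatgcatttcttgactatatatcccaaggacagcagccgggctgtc
Capitals mark matches to motifs searched on both strands, which were the E-box CACGTG, the Iroquois-type palindrome ACATGT, the AP-1 site TGACTCA, the TATA-box letters TATAAA and the GC-box letters GGGCGG. Kcnd2 held 1 GC box, a motif in 32.7% of 32851 mouse promoter windows of this length, and Kcne4 held 1 E-box, a motif in 6.02%. Kcnd3 held none of the 5. The other motifs occurred in 4.58% of the windows for the Iroquois type, 4.46% for AP-1 and 12.4% for the TATA box. G and C made up 68.8% of the bases for Kcnd2, 62.8% for Kcnd3 and 53.2% for Kcne4, against a median of 52.4% over all windows. The Kcnd3 window lies inside the annotated span of Kcnd3os.

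Of the remaining 5 tested members in the transient outward group, Kcna4, the pore gene of the slow component, was at 2.11 and 8.84 CPM after MI at 1 day, against 1.85 and 2.47 CPM in sham libraries. Its 3-day values were 0.901 and 0.646 CPM after MI, against 3.15 and 2.49 CPM, a log2 change of −1.88 (SE 0.67, adjusted p = 0.0377). That call was lost without any 1 of the 4 libraries of 3 days, and without either sham library of 1 day. Kcnd1 rose at 3 days, with 1.27 and 1.19 CPM after MI, against 0.267 and 0.212 CPM (log2 fold change 2.32, SE 0.82, adjusted p = 0.0327), and this too was lost without any 1 of those 4 libraries. Kcnip3 was called higher at 1 day, and Kcnip1 and Kcnip4 were called on neither day.

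The slowly inactivating and ultrarapid voltage-gated group had 7 falls and 1 rise among 10 tested members at 3 days, when 23.7% of all genes fell. At 1 day it had 2 falls and 1 rise, near the 19.7% of falls and 19.3% of rises over all genes. Kcna5, which encodes the ultrarapid pore, was at 35.3 and 16.1 CPM after MI at 1 day, against 56.7 and 43.9 CPM, and at 16 and 13.4 CPM after MI at 3 days, against 33.8 and 51.6 CPM. It lay below sham in both comparisons, but only the 3-day change passed the test (log2 fold change −1.54, SE 0.34, adjusted p = 0.00362; at 1 day −0.94, SE 0.34, adjusted p = 0.0552). Without sham library B of 3 days, the 3-day call of Kcna5 was lost. Kcna7, a related voltage-gated pore gene of striated muscle, had 4.86 and 4.67 CPM after MI at 1 day, against 12.8 and 11.4 CPM, and 0.328 and 0.340 CPM after MI at 3 days, against 9.08 and 12.8 CPM. Its log2 change of −5.01 at 3 days (SE 0.39, adjusted p = 6.57e-06) was among the 5 deepest in the family.

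Silent subunits form no channel alone and alter the voltage-gated pores they join. Only 4 of the 10 in the list had enough counts to be tested, and 2 of these 4, Kcng2 and Kcnv2, fell on both days. Kcng2 was at 73.8 and 48.5 CPM after MI at 1 day, against 235 and 205 CPM in sham libraries, and at 12.9 and 13.0 CPM after MI at 3 days, against 137 and 143 CPM. Its log2 fold changes were −1.84 (SE 0.21, adjusted p = 0.000352) and −3.43 (SE 0.23, adjusted p = 3.23e-06). Kcnv2 was at 4.13 and 6.02 CPM after MI at 1 day, against 17.4 CPM in both sham libraries. By 3 days it was at 0.778 and 0.476 CPM after MI, against 30.2 and 36.6 CPM, a log2 change of −5.75 (SE 0.32, adjusted p = 1.72e-06). Its log2 difference between the days was −3.93 (SE 0.47, adjusted p = 0.000619), the most negative called difference in the family.

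The delayed rectifier genes of late repolarisation fell as well. Kcnh2, the pore gene of the rapid component, was at 23.4 and 12.3 CPM after MI at 1 day, against 58.8 and 57.8 CPM, and at 3.11 and 3.23 CPM after MI at 3 days, against 39.8 and 44.1 CPM. Its log2 fold changes were −1.67 (SE 0.26, adjusted p = 0.00133) and −3.72 (SE 0.29, adjusted p = 6.92e-06), and the 1-day value was −2.34 without MI library A of 1 day. Kcnq1, the pore gene of the slow component, was at 16.5 and 18.5 CPM after MI at 1 day, against 58.6 and 51.1 CPM, and at 6.96 and 6.70 CPM after MI at 3 days, against 39.3 and 43.6 CPM. It lay below sham on both days, with log2 fold changes of −1.65 (SE 0.19, adjusted p = 0.000365) and −2.60 (SE 0.20, adjusted p = 5.6e-06). Kcne1, the accessory subunit of Kcnq1, was at 1.13 and 6.39 CPM after MI at 1 day, on either side of the sham values of 4.86 and 4.42 CPM. By 3 days it was at 0.983 and 0.714 CPM after MI, against 4.70 and 6.10 CPM, a log2 change of −2.68 (SE 0.59, adjusted p = 0.00368).

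Kcnq1ot1 is a long noncoding RNA transcribed from within Kcnq1 on the opposite strand, and it was singled out after its values were seen. It was at 293 and 438 CPM after MI at 1 day, against 113 and 90.4 CPM, and at 268 and 287 CPM after MI at 3 days, between the sham values of 123 and 341 CPM. It rose at 1 day (log2 fold change 1.84, SE 0.41, adjusted p = 0.00671) and was not called at 3 days (0.26, SE 0.39, adjusted p = 0.603). The 1-day call was lost without MI library B or without either sham library of that day. It moved the opposite way to Kcnq1, whose span (chromosome 7, 143106877 to 143427050) contains it, but without a stated strand setting their shared reads cannot be told apart.

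Among inward rectifiers, which hold the resting potential, Kcnj2 and Kcnj12 encode the strong type. Kcnj2 was at 59.4 and 98.3 CPM after MI at 1 day, against 192 and 178 CPM in sham libraries, and at 54.9 and 28.9 CPM after MI at 3 days, against 140 and 113 CPM. Its log2 fold changes were −1.24 (SE 0.32, adjusted p = 0.0136) and −1.60 (SE 0.32, adjusted p = 0.00197), with a difference between the days of −0.36 that did not pass (SE 0.44, adjusted p = 0.59). Kcnj12 was at 32.2 and 11.4 CPM after MI at 1 day, against 49.7 and 50.4 CPM, and at 2.58 and 2.92 CPM after MI at 3 days, against 45.6 and 42.6 CPM. It fell by 1.15 at 1 day on the log2 scale (SE 0.35, adjusted p = 0.0279) and by 3.99 at 3 days (SE 0.41, adjusted p = 3.12e-05), and its difference of −2.84 passed (SE 0.54, adjusted p = 0.0053). Without MI library A of 1 day the 1-day value of Kcnj12 was −2.22 and its difference −1.99, and without MI library B the 1-day value was −0.63. The 3-day value of Kcnj2 was −2.34 without MI library A of 3 days. The 1-day calls were lost without sham library A for both genes, and for Kcnj12 also without sham library B or either MI library of 3 days. The number of Kcnj12 counts for each Kcnj2 count was 0.047 and 0.101 after MI at 3 days, against 0.325 and 0.376 after sham surgery (exact permutation p = 0.333, the smallest possible).

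The pore genes of ATP-sensitive channels also parted. Kcnj11 (chromosome 7, 46097123 to 46100952), the pore of the cardiomyocyte surface channel, was at 24.6 and 18.5 CPM after MI at 1 day, against 108 and 91.1 CPM, and at 2.01 and 2.04 CPM after MI at 3 days, against 85.8 and 85.9 CPM. It fell by 2.19 (SE 0.20, adjusted p = 0.000148) and by 5.40 on the log2 scale (SE 0.24, adjusted p = 1.26e-06). Kcnj8 (chromosome 6, 142564837 to 142571614), the pore of the vascular smooth muscle and pericyte channel, was at 46.3 and 28.4 CPM after MI at 1 day, on either side of the sham values of 38.7 and 39.1 CPM. By 3 days it was at 22.4 and 18.8 CPM after MI, against 70.3 and 37.4 CPM, a log2 change of −1.39 (SE 0.31, adjusted p = 0.00417) that was lost without sham library A. The number of Kcnj11 counts for each Kcnj8 count was 0.531 and 0.654 after MI at 1 day, against 2.79 and 2.33, and 0.0896 and 0.108 after MI at 3 days, against 1.22 and 2.3 after sham surgery. The 6 mural cell markers summed to 577 and 570 CPM after MI at 1 day, against 612 and 627 CPM, and to 456 and 399 CPM after MI at 3 days, against 840 and 637 CPM. Of the 6, 1 fell at 1 day, and 3 fell and 1, Pdgfrb, rose at 3 days. The lower sum at 3 days was mostly Rgs5, at 246 and 198 CPM after MI, against 628 and 428 CPM, and the part of mural cells in the values of Kcnj8 was not tested.

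The sulfonylurea receptor genes, whose proteins surround these pores, fell alongside Kcnj11. Abcc9 was at 405 and 338 CPM after MI at 1 day, against 826 and 822 CPM, and at 76.0 and 60.4 CPM after MI at 3 days, against 755 and 754 CPM (log2 fold changes −1.15 and −3.47, SE 0.18 and 0.19, adjusted p = 0.00119 and 1.58e-06). Abcc8 was at 7.70 and 11.7 CPM after MI at 1 day, against 53.1 and 46.0 CPM, and at 0.450 and 1.33 CPM after MI at 3 days, against 38.8 and 48.3 CPM.

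Kcnj3 and Kcnj5 encode the G-protein-gated channel opened by vagal acetylcholine, best known from atria and the pacemaker. Kcnj3 was at 12.6 and 15.7 CPM after MI at 1 day, against 72.3 and 64.9 CPM, and at 2.01 and 1.39 CPM after MI at 3 days, against 49.1 and 66.5 CPM. Kcnj5 was at 15.7 and 38.7 CPM after MI at 1 day, against 92.2 and 97.5 CPM, and at 5.12 and 6.87 CPM after MI at 3 days, against 87.6 and 84.0 CPM. Both fell on both days, Kcnj3 by 2.29 and 5.10 on the log2 scale (SE 0.24 and 0.28, adjusted p = 0.000236 and 1.59e-06) and Kcnj5 by 1.84 and 3.83 (SE 0.34 and 0.36, adjusted p = 0.00283 and 2.06e-05). Without MI library B of 1 day, the 1-day value of Kcnj5 was −2.59. The atrial marker Myl7 was at 0.162 and 32.6 CPM in MI libraries A and B of 1 day, against 30.0 and 24.5 CPM in the sham libraries, and at 0.287 and 0.238 CPM after MI at 3 days, against 1.5 and 1.38 CPM. The part of atrial tissue in the values of Kcnj3 and Kcnj5 was not tested.

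Kcnk3, a two-pore-domain background channel gene, fell more than any other member at 1 day. It was at 43.0 and 40.5 CPM after MI at 1 day, against 276 and 226 CPM, and at 8.84 and 11.7 CPM after MI at 3 days, against 175 CPM in both sham libraries. Its log2 fold changes were −2.58 (SE 0.20, adjusted p = 9.83e-05) and −4.08 (SE 0.21, adjusted p = 1.47e-06). The small-conductance calcium-activated channel genes Kcnn1 and Kcnn2 fell on both days and Kcnn3 at 3 days. Kcnn1 was at 3.97 and 5.16 CPM after MI at 1 day, against 25.6 and 24.0 CPM, and at 0.983 and 1.36 CPM after MI at 3 days, against 17.5 and 18.1 CPM. Kcnn2 was at 1.46 and 2.70 CPM after MI at 1 day, against 6.60 CPM in both sham libraries, and at 0.491 and 0.442 CPM after MI at 3 days, against 4.06 and 7.48 CPM. The 1-day call of Kcnn2 was lost without MI library A or either sham library of that day.

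**Figure D2:**
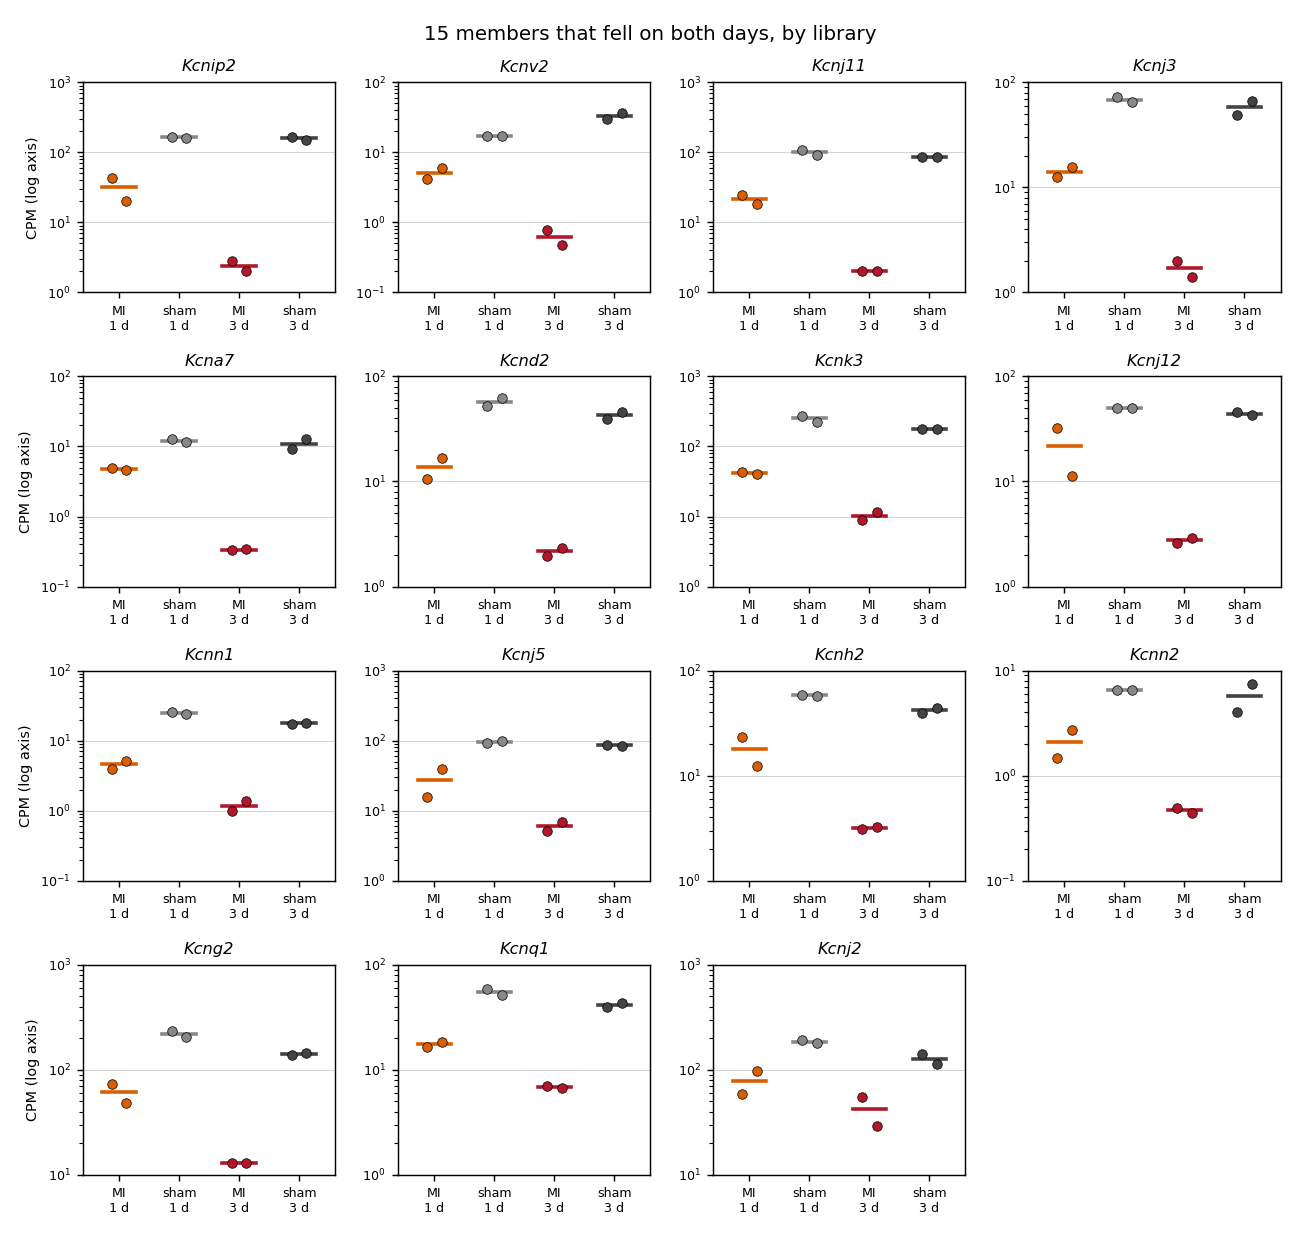
CPM (log axis) of each library for 15 of the 16 members that fell on both days, ordered by the log2 fold change at 3 days; points are the 2 libraries of a group and the bar is their mean. In every panel both MI libraries lie below both sham libraries of the same day, as for Kcnip2 at 3 days, with 2.83 and 2.01 CPM after MI, against 166 and 152 CPM.

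The 16 members that fell on both days had log2 fold changes of −2.58 to −1.15 at 1 day, with a median of −1.83, and of −6.05 to −1.60 at 3 days, with a median of −3.95. The fall was larger at 3 days in 16 of 16, and the difference between the days passed the test in 14, the exceptions being Kcnj2 and Kcnn2. The matching shares over all genes that fell on both days were not computed, so these counts describe the 16 only. The difference was also called lower in 10 of 10 cardiomyocyte markers. In the difference over all 64 tested members, 19 fell further and 3 rose, so 34.4% were called, against 24.5% of all genes. Of the 19 falls in the difference, 10 were lost in none of 16 alternatives, and of the 3 rises 1, Kcnk13. Set beside the 10 cardiomyocyte markers, which lay between −1.55 (Myh6) and −0.26 (Ttn) at 1 day, 13 of the 64 members tested lay below the lowest marker, against 4.68% of all genes tested. At 3 days the markers lay between −5.16 (Myh6) and −3.13 (Tnnt2). Below the lowest lay 3 members, Kcnip2, Kcnv2 and Kcnj11, against 0.684% of all genes. The median of the markers was −1.01 at 1 day and −4.10 at 3 days. Of the 16 members that fell on both days, which were chosen by their falls, 16 lay below that median at 1 day and 6 at 3 days. The cardiomyocyte markers fell with these members, in 9 of 10 at 1 day and 10 of 10 at 3 days, and their part in the falls was not tested.

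Another 12 members fell at 3 days alone, with a median of −0.05 at 1 day and −2.33 at 3 days. In 5 of them, which included Kcnd3, Kcna2, Kcna4 and Kcnn3, the difference between the days also passed the test. That of Kcna2, −3.02, was lost in 10 of 16 alternatives and that of Kcna4, −3.09, in 9 of 16. Without MI library B of 1 day they were −1.69 and −1.84 (adjusted p = 0.175 and 0.066), and without MI library A of 1 day −3.99 and −4.03. That of Kcnn3 was lost without sham library A of 1 day or MI library B of 3 days. For the others, which included Kcna1, Kcna5, Kcna6, Kcnd3os, Kcne1 and Kcnj8, that difference did not pass. The 3-day call of Kcnn3 was lost without MI library B of 3 days, and that of Kcna6, at under 2 CPM in every library, was lost in 10 of 17 alternatives, with values of −4.41 without MI library A of 3 days and −1.29 without MI library B. That of Kcna1, −3.37, was −2.42 without sham library B of 3 days.

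Rises at 3 days were led by Kcnn4 (chromosome 7, 24369826 to 24385212), the intermediate-conductance calcium-activated channel gene of macrophages, lymphocytes and activated fibroblasts. It was at 0.972 and 2.70 CPM after MI at 1 day, against 0.289 and 0.804 CPM, and at 19.1 and 17.7 CPM after MI at 3 days, against 0.801 and 0.212 CPM. Both MI libraries of 3 days were far above every other library, with a log2 change of 5.16 (SE 0.49, adjusted p = 1.93e-05), against 1.61 at 1 day (SE 0.78, adjusted p = 0.128). The difference of 3.55 passed (SE 1.08, adjusted p = 0.0389) but was lost without MI library A of 1 day, without either sham library of 1 day, without either MI library of 3 days or without sham library B of 3 days. Leaving out 1 library gave 2.73 (sham library B of 1 day) to 4.86 (sham library A of 3 days) for the difference, and for the 3-day value 4.52 (sham library B of 3 days) to 6.39 (sham library A of 3 days).

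Kcnab2 and Kcnk13 likewise rose at 3 days and not detectably at 1 day. Kcnab2, an oxidoreductase-like beta subunit of voltage-gated channels, was at 8.10 and 5.28 CPM after MI at 1 day, against 4.28 and 6.20 CPM, and at 28.5 and 24.8 CPM after MI at 3 days, against 4.65 and 2.71 CPM (log2 fold change at 3 days 2.85, SE 0.32, adjusted p = 5.19e-05). Kcnk13, a two-pore-domain gene known from microglia, was at 4.78 and 2.09 CPM after MI at 1 day, against 4.86 and 3.33 CPM, and at 15.6 and 16.8 CPM after MI at 3 days, against 2.99 and 2.07 CPM (2.68, SE 0.34, adjusted p = 0.000132). Their differences between the days were 2.47 (SE 0.48, adjusted p = 0.00628) and 2.85 (SE 0.55, adjusted p = 0.00587). That of Kcnab2 was lost without sham library B of 1 day, and that of Kcnk13 was 3.52 without MI library A of 1 day. Kcnk6, Kcnd1 and Kcne1l rose at 3 days too, and each call was lost without any 1 of the 4 libraries of 3 days. Kcne1l had 22 counts in each MI library of 3 days and at most 5 in any other. It could thus be tested only through the group where it was high.

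The rises on both days were Kcna3, Kcne3, Kcne4, Kcnj15 and Kcnab1. Kcna3, the voltage-gated channel gene of lymphocytes and macrophages, was at 4.78 and 3.93 CPM after MI at 1 day, against 0.405 and 0.402 CPM, and at 8.52 and 4.93 CPM after MI at 3 days, against 1.17 and 0.478 CPM. Its log2 fold changes were 3.43 (SE 0.66, adjusted p = 0.00353) and 3.00 (SE 0.48, adjusted p = 0.000509), and the 3-day value was 2.36 without MI library A and 3.78 without sham library A of 3 days. In transcript-table reads per kilobase (RPKM), Kcna3 was at 0.0823 and 0 after MI at 1 day, against 0 and 0.0471. At 3 days it was at 0.0862 and 0.0413 RPKM after MI, against 0.0519 and 0 RPKM. Its rise in gene counts was thus not seen in transcript-table reads, and the cause of this was not tested. Kcne4, whose product associates with voltage-gated pores and dampens some of them, was named after its values were seen; it was at 58.7 and 42.4 CPM after MI at 1 day, against 8.33 and 8.50 CPM, and at 60.3 and 54.8 CPM after MI at 3 days, against 12.7 and 11.1 CPM. Its rises of 2.59 (SE 0.23, adjusted p = 0.000129) and 2.27 (SE 0.22, adjusted p = 2e-05) did not differ detectably between the days (difference −0.32, SE 0.31, adjusted p = 0.485). Kcnj15, an inward rectifier gene of epithelia, was at 3.48 and 5.41 CPM after MI at 1 day, against 0.405 and 0.746 CPM, and at 9.74 and 10.1 CPM after MI at 3 days, against 0.801 and 1.06 CPM.

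Kcne3, another accessory subunit, was at 0.810 and 3.69 CPM after MI at 1 day, against 0.0579 and 0.287 CPM, and at 10.8 and 5.10 CPM after MI at 3 days, against 0.374 and 0.159 CPM. Its 3-day rise of 4.85 (SE 0.75, adjusted p = 0.000259) was kept in every alternative that tested it, whereas the 1-day rise of 3.48 (SE 1.20, adjusted p = 0.0402) was lost in 10 of 17, among them without MI library B, without either sham library of 1 day and without either sham library of 3 days. Kcne3 had at most 7 counts in any sham library. It passed the filter only through the MI groups, where it was high, so its calls are not independent evidence of a rise. The 1-day value ranged from 2.19 without MI library B to 4.88 without sham library B of 1 day, and the 3-day value from 4.01 without MI library A to 5.57 without sham library A of 3 days. The beta subunit gene Kcnab1, also named after its values were seen, was at 4.70 and 10.4 CPM after MI at 1 day, against 1.22 and 2.12 CPM, and at 5.73 and 5.24 CPM after MI at 3 days, against 2.51 and 2.07 CPM. Its 1-day rise of 2.11 was 1.49 without MI library B, and its 1-day call was lost without sham library A, and its 3-day call without any 1 of the 4 libraries of 3 days.

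The macrophage markers moved with the rises at 3 days and were mixed at 1 day. The 7 of 8 listed markers that were in the tables summed to 542 and 387 CPM after MI at 1 day, against 334 and 387 CPM, and to 1790 and 1960 CPM after MI at 3 days, against 516 and 266 CPM, with 7 of 7 called higher at 3 days. At 1 day 3 rose and 1, C1qa, fell by 1.89 on the log2 scale (SE 0.33, adjusted p = 0.00205). The 6 neutrophil markers summed to 1880 and 951 CPM after MI at 1 day, against 181 and 137 CPM, and to 842 and 445 CPM after MI at 3 days, against 205 and 102 CPM. The 5 lymphocyte markers summed to 0.891 and 4.42 CPM after MI at 1 day, against 1.22 and 0.919 CPM, and to 6.84 and 8.47 CPM after MI at 3 days, against 2.4 and 1.38 CPM. The T-cell marker Cd3e lay between 0 and 0.369 CPM in every library, whereas the B-cell marker Ms4a1 was at 4.63 and 5.41 CPM after MI at 3 days, against 1.23 and 0.265 CPM. The part of these cells in the rises was not tested. The 5 endothelial markers summed to 1110 and 1070 CPM after MI at 1 day, against 871 and 781 CPM, and to 928 and 750 CPM after MI at 3 days, against 725 and 660 CPM. The 5 fibroblast markers summed to 1120 and 1080 CPM after MI at 1 day, against 1270 and 1610 CPM, and to 3280 and 3040 CPM after MI at 3 days, against 2800 and 1180 CPM. The 4 atrial markers summed to 374 and 680 CPM after MI at 1 day, against 437 and 468 CPM. At 3 days they summed to 498 and 517 CPM after MI, against 152 and 193 CPM. On both days this sum was mostly Nppa, which rises in stressed ventricle. Like Myl7, Myl4 and Sln were low in MI library A of 1 day. Myl4 was at 2.59 and 61.3 CPM after MI at 1 day, against 53.3 and 36.2 CPM. Sln was at 0 and 6.76 CPM, against 6.08 and 3.85 CPM. The part of atrial tissue in the 1-day values was not tested. The 4 glial markers summed to 4.25 to 12.2 CPM over the libraries.

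**Figure D3:**
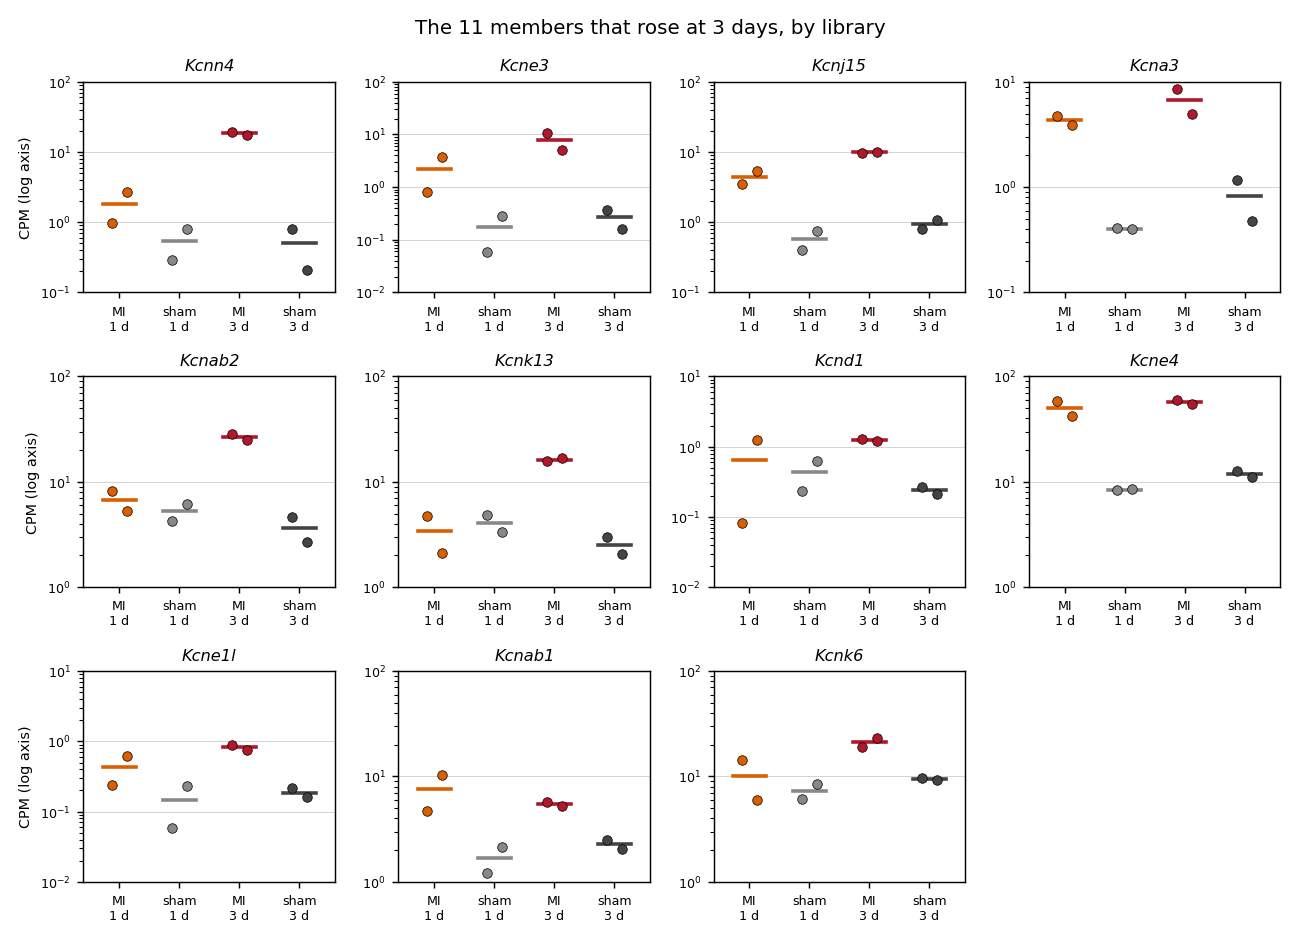
CPM (log axis) of each library for the 11 members that rose at 3 days, ordered by that log2 fold change; points are the 2 libraries of a group and the bar is their mean. Kcnn4, Kcnab2 and Kcnk13 are high in the MI libraries of 3 days alone, while Kcna3, Kcne4 and Kcnj15 are already high in the MI libraries of 1 day. The rise of Kcna3 in these gene counts was not seen in transcript-table reads.

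Further rises at 1 day, of Kcnh1, Kcnh4, Kcnip3 and Kcnj13, were small in counts and highest in MI library B. Kcnj13 was at 0 RPKM in every library of 1 day, so its rise in gene counts was not seen in transcript-table reads. Kcnh4, an ether-a-go-go-like voltage-gated gene, was at 0.972 and 3.07 CPM after MI, against 0.116 and 0.172 CPM (log2 fold change 3.61, SE 0.92, adjusted p = 0.00958). Kcnh4 had at most 8 counts in any library outside this MI group. It passed the filter only through the group where it was high, so its call is not independent evidence of a rise. Kcnh1, of the same Kcnh family, was at 1.94 and 4.30 CPM after MI, against 0.174 and 0.344 CPM (3.47, SE 0.70, adjusted p = 0.00361). Without MI library B the values of Kcnh4 and Kcnh1 were 2.70 and 2.88, and without MI library A that of Kcnh4 was 4.26. Without MI library B the calls of Kcne3, Kcnh4, Kcnip3, Kcnj13 and Kcnq1ot1 were among those lost, and 5 of the 11 rises and 16 of the 16 falls of 1 day were kept. With MI library A left out in its place, 86 members passed the filter, in place of 64. The calls of that fit are therefore not counts over the same members. Without sham library A the calls kept were 3 rises, Kcna3, Kcne4 and Kcnj15, and 13 falls, with Kcnj2, Kcnj12 and Kcnn2 lost; without sham library B, 5 rises and 14 falls were kept.

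The 25 members that could not be tested had 11 to 100 counts over the 8 libraries. Of their 763 counts, 493 (64.6%) were in MI library B of 1 day, which had the highest CPM in 24 of 25, the exception being Kcnj4. The others beside Kcnma1 were Kcna10, Kcnb2, Kcnc4, Kcnf1, Kcng1, Kcng3, Kcnh3, Kcnh5, Kcnh6, Kcnh7, Kcnh8, Kcnj1, Kcnj9, Kcnj16, Kcnk4, Kcnk18, Kcnmb2, Kcnmb3, Kcnq3, Kcns1, Kcns2, Kcnu1 and Kcnv1, none with more than 12 counts in any 1 of the other libraries. Kcnma1, the large-conductance calcium-activated pore gene of smooth muscle, had 4 and 64 counts after MI at 1 day, against 4 and 5, and 9 and 3 counts after MI at 3 days, against 3 and 8. Its accessory gene Kcnmb1 could be tested, and was at 1.05 and 2.46 CPM after MI at 1 day, against 1.04 and 1.15 CPM, and at 1.88 and 2.28 CPM after MI at 3 days, against 2.78 and 1.49 CPM. Kcnmb1 was called on neither day (adjusted p = 0.51 and 0.968). A further 18 tested members were called on neither day: Kcnab3, Kcnc1, Kcnc2, Kcng4, Kcnip1, Kcnip4, Kcnj6, Kcnj10, Kcnj14, Kcnk1, Kcnk2, Kcnk5, Kcnk7, Kcnq5, Kcnrg, Kcns3, Kcnt1 and Kcnt2. Over these and Kcnmb1, the median log2 fold change was 1.03 at 1 day and −0.13 at 3 days. The 1-day median includes MI library B, which had the highest CPM in 27 of the 64 tested members.

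**Figure D4:**
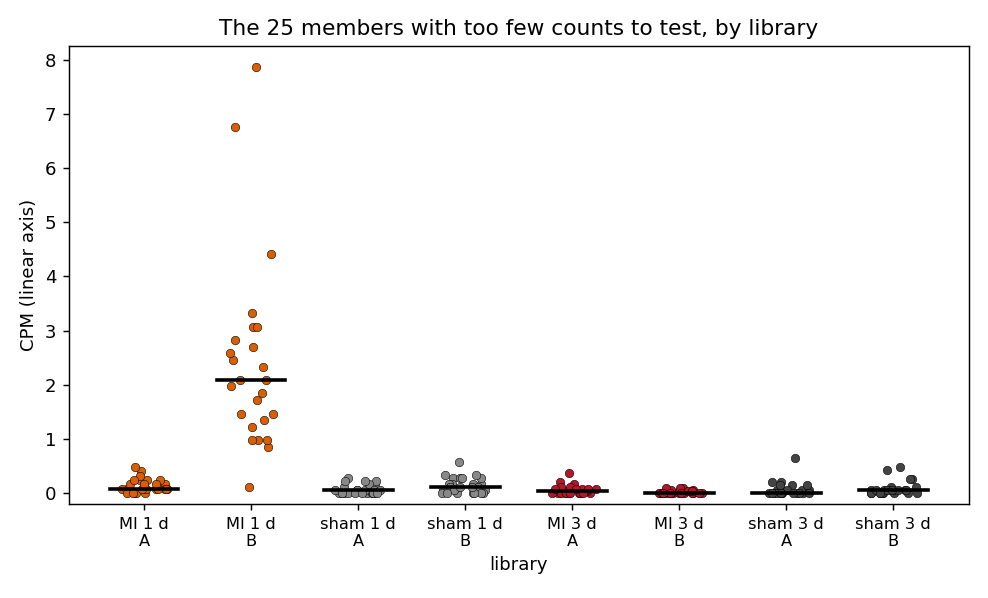
CPM (linear axis) in each library of the 25 members with too few counts to test; each point is a member and the line is the median. MI library B of 1 day has the highest CPM for 24 of the 25, and in the other libraries no member had more than 12 counts.

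The make-up of potassium channel RNA in the tissue differed between the groups. The 87 protein-coding members summed to 641.6 and 726 CPM after MI at 1 day, against 1692 and 1546 CPM, and to 384.6 and 339.9 CPM after MI at 3 days, against 1345 and 1368 CPM. The 16 members that fell on both days made up 60.7 and 52.2% of this sum after MI at 1 day, against 88.3 and 87.6%, and 28.8 and 26.2% after MI at 3 days, against 83.1 and 83.8%. The 11 members that rose at 3 days made up 15.7 and 11.5% after MI at 1 day, against 1.55 and 2.05%, and 46.7 and 48.4% after MI at 3 days, against 2.69 and 2.15%. These genes were chosen by the same contrasts, so the shares describe the libraries and test nothing, and since long transcripts give more reads they are shares of reads.

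**Figure D5:**
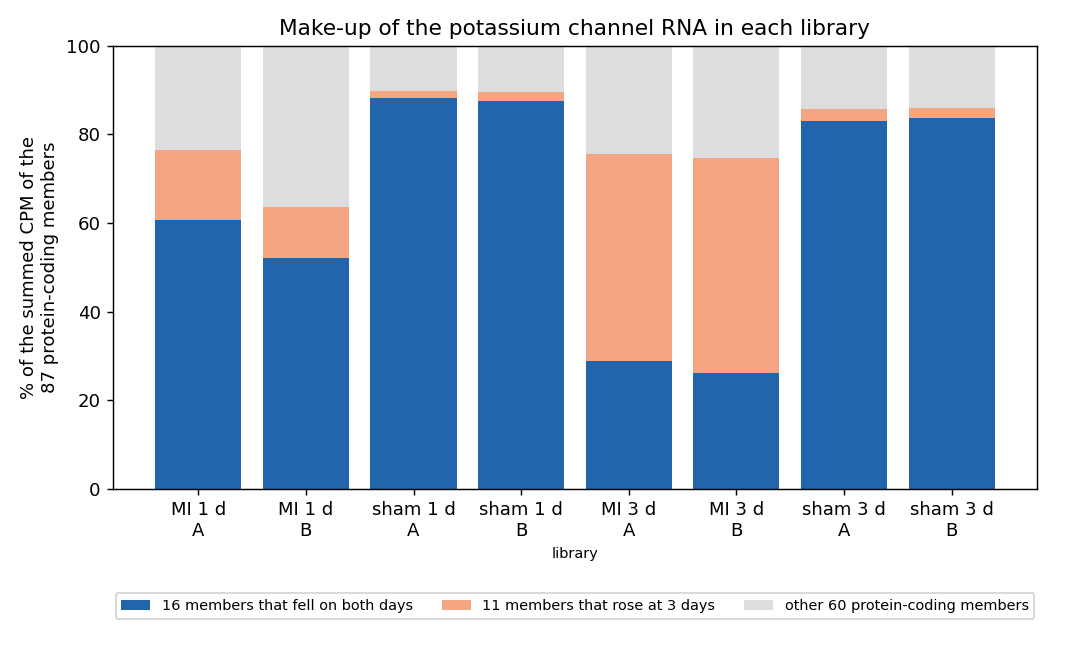
Share of the summed CPM of the 87 protein-coding members in each library, in percent, taken by the 16 members that fell on both days, the 11 that rose at 3 days and all others. The 16 falling members hold 28.8 and 26.2% in the MI libraries of 3 days and 83.1 to 88.3% in the sham libraries.

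Levels were compared between genes per kilobase of transcript (RPKM, from transcript-table reads). After MI at 3 days the highest members were Kcnab2 at 15.7 and 12.9 RPKM, Kcne4 at 13.6 and 10.6 RPKM and Kcnn4 at 10.4 and 11.3 RPKM. The ranges of Kcne4 and Kcnn4 overlapped, and so did those of Kcnab2 and Kcne4. In the sham libraries of 3 days the highest were Kcnip2 at 72.2 and 68.0 RPKM, Kcng2 at 66.2 and 60.3 RPKM and Kcnk3 at 47.3 and 44.9 RPKM, with no overlap between these 3. Kcnip2 stood at 1.89 and 1.40 RPKM after MI at 3 days, rank 17 in the family. After MI at 1 day Kcng2 was highest in both libraries, at 30.4 and 18.3 RPKM. Kcnip2, at 23.9 and 10.2 RPKM, came next in library A but lay below Kcnj2 in library B. The range of Kcnip2 overlapped those of Kcng2, Kcnj8, Kcnj2, Kcnk3 and Kcna5. Kcng2 and Kcnip2 led the sham libraries of 1 day, with 80.7 and 72.5 RPKM for Kcng2 and 63.5 and 57.6 RPKM for Kcnip2.

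Within infarcted ventricle, 3 days against 1 day gave 6 rises and 30 falls among the 64 tested members, or 56.2%, against 45.4% of all genes. The rises were led by Kcnn4 (log2 fold change 3.44, SE 0.45, adjusted p = 0.000276) and Kcnk13 (2.16, SE 0.36, adjusted p = 0.00115). Kcnc1, a fast voltage-gated gene, had 1 count in the MI libraries of 3 days together, against 40 in those of 1 day. The ratio of the 2 groups, 1 day over 3 days, was 105 (95% exact interval of the counts 17.8 to 4250, which covers counting error only). Library B held 35 of the 40 counts of 1 day. Kcnq5, a gene of the neuronal M-current, was at 0.123 and 0.204 CPM at 3 days and at 0.810 and 5.28 CPM at 1 day (−3.95, SE 0.98, adjusted p = 0.00835). Without MI library A of 1 day the fit tested 86 members and without library B 65, in place of 64, so their counts of calls are not compared. In sham ventricle, 3 days against 1 day gave 0 called members by edgeR, against 0% of all genes. At an unadjusted p under 0.05 there were 8 members, or 12.5%, against 7.8% of all genes; DESeq2 and limma-voom also gave 0, and the lowest adjusted p was 0.631.

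Of 15 genes for partners of these channels, 11 could be tested; 0 rose and 5 fell at 1 day, and 0 rose and 9 fell at 3 days (edgeR), with list medians of −0.34 and −1.26, where 19.7% of all genes fell at 1 day and 23.7% at 3 days. Amigo1, a companion of voltage-gated channels, was at 8.10 and 8.11 CPM after MI at 1 day, against 30.7 CPM in both sham libraries, and at 4.91 and 3.88 CPM after MI at 3 days, against 26.1 and 23.8 CPM. Cav3, Nedd4l, Akap9 and Dlg1 fell at 3 days. Lrrc52 had 1 count in the MI libraries of 3 days together, against 191 in the sham libraries, a sham over MI ratio of 274 (48.5 to 10900). Of 6 transcription factor genes that regulate cardiac potassium channels, Irx4 fell on both days and Irx3, Irx5 and Hey2 at 3 days, while Etv1 and Rest were not called. Irx5, a repressor of Kcnd2 in the mouse ventricle, was at 6.89 and 4.55 CPM after MI at 1 day, against 6.25 and 3.79 CPM, and at 0.696 and 1.05 CPM after MI at 3 days, against 5.29 and 5.94 CPM (log2 fold change at 3 days −2.65, SE 0.42, adjusted p = 0.000528).

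In the authors' deposited table for 1 day, 8 of 89 listed members were higher and 15 lower after MI at an adjusted p under 0.05. Of these, 21 were called here. In the authors' deposited table for 3 days, whose sign is sham over MI and was turned, 10 of 86 listed members were higher and 26 lower after MI. Of these, 35 were called here. The share called over all genes of those tables was not computed, so these counts compare the calls and say nothing about the family.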

How the data were processed

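Total RNA of 8 left ventricle libraries was analysed from the files the authors deposited. Per the labels' protocols, ribosomal RNA was removed and sequencing was paired-end. Per the submitters' processing notes, HTSeq, DESeq2, TopHat2 2.0.14, Bowtie2 2.2.5 and SAMtools 0.1.2 were applied against mm10, in an order the notes leave out; neither the annotation nor the strand setting is stated there. The authors deposited 1 table of raw read counts per gene symbol for each day, a DESeq2 table for each day with log2 fold changes and adjusted p-values per the file headers, and transcript tables with read counts and transcript lengths per the file headers. The 48 other columns of per-library values in those tables were not used. Count columns name the group and carry no replicate number, so libraries are A and B by column order, and p-values measure the spread between 2 mice per group.

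Genes in both count tables (24062) were filtered with filterByExpr, which left 15508 tested and 64 of 89 members; the 25 others were not tested. A member that passed through 1 group had to be high there, so counts over tested members are not counts over all. All 8 libraries were fitted by group with edgeR 4.0.16 in R 4.3.3 (TMM scaling, robust quasi-likelihood, 4 residual degrees of freedom, 2-sided, Benjamini-Hochberg adjusted over all genes, threshold 0.05). The SE is the log2 fold change divided by the square root of F. RPKM was computed from total transcript reads, transcript length and non-mitochondrial reads of the library, for 88 members. The script was tested on simulated data.

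The members, the gene lists and the rule for named genes were chosen with earlier results of these data known. The rule named 20 channel genes always, the 5 largest other rises and falls at each day and 3 at each end of the other contrasts; a few genes are not reported here. Kcne4, Kcnq1ot1 and Kcnab1 were named after their values were seen. Gene positions and promoters come from RefSeq tables of GRCm38.p6, the assembly of mm10, in which 89 members had positions and 65 a promoter; a reference of build NCBIM37 was not used for coordinates. Alternatives were other scalings, DESeq2 1.42.0, limma-voom 3.58.1, other filters, only the libraries of the day compared, transcript-table reads and leaving out each library; leaving out both B libraries of 1 day was chosen after seeing the data.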

Additional observations from a re-analysis of the deposited data

Results flagged for a closer look

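The response to MI differed between 3 days and 1 day in 22 members, by the edgeR test of the difference itself, with an adjusted p of 0.000222 (Kcnj11) to 0.0453 (Kcna2). These were 34.4% of the 64 members tested, against 24.5% of all genes tested. The values here are log2 differences of the response, 3 days minus 1 day. In 10 members the response was lower at 3 days and was lost in none of the alternatives, among them Kcnv2 (−3.93), Kcnip2 (−3.72), Kcnd3 (−3.67), Kcna7 (−3.67), Kcnj11 (−3.21), Kcnj12 (−2.84), Kcnj3 (−2.81), Kcnd2 (−2.19) and Kcnh2 (−2.05). In 9 others the difference was lost in at least 1 alternative, among them Kcna4 (−3.09), Kcna2 (−3.02), Kcnn3 (−2.85), Kcnj5 (−1.99), Kcng2 (−1.59), Kcnk3 (−1.50), Kcnn1 (−1.44) and Kcnq1 (−0.95). It was higher at 3 days in 3 members, Kcnn4 (3.55), Kcnk13 (2.85) and Kcnab2 (2.47), of which Kcnk13 was lost in no alternative. Each difference rests on 2 libraries in each of the 4 groups, and all 22 share the same sham and MI libraries.

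Among the 19 lower members, the MI and sham libraries of Kcnd3 overlapped at 1 day, with a log2 fold change of −0.08, while its 3-day value of −3.76 lay among those of genes that had fallen at 1 day. It was singled out after its values were seen. The cardiomyocyte markers had a median difference of −2.98 between the days, and their part in these values was not tested.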

How the results depend on the processing

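No paired analysis was possible because the count columns carry no replicate number. No call of a member changed sign in any of the 17 alternatives. Counts of calls kept within 1.5 times of those reported, except as follows. DESeq2's Wald test gave 3 rises for MI at 3 days against MI at 1 day, in place of 6. With only the libraries of the day in the fit, 7 members rose at 1 day, and without both B libraries of 1 day 6 rose, in place of 11. Leaving out 1 library at a time gave 16 to 58 calls at 1 day (3 to 42 rises), 7 to 11 rises at 3 days, 12 to 37 calls in the difference between the days (11 to 34 falls, 1 to 4 rises), and 24 to 65 calls for MI at 3 days against MI at 1 day (20 to 61 falls, 3 to 8 rises). The upper ends of the calls came without MI library A of 1 day, which leaves library B alone in its group, assumed to vary like the others. Library size alone moved the median log2 fold change of all genes to 0.39 at 1 day and 0.43 at 3 days, from 0.12 and 0.16, and gave 16 rises and 16 falls at 1 day and 11 rises and 24 falls at 3 days; the cause of these shifts was not tested. Of the calls at 1 day, 3 of 11 rises and 13 of 16 falls were lost in no alternative, and at 3 days 7 of 11 rises and 21 of 28 falls. Among these rises on each day was Kcna3, which was kept in 16 of 17 alternatives. It could not be tested with transcript-table reads, so that alternative says nothing about its call. The low depth of the 1-day MI libraries limits members under 0.369 CPM. Every permutation test of ratios was limited to p = 0.333.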
